A study of Mus musculus with 9 samples.

Results

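Sco2, Tymp and Odf3b are 3 neighbouring genes on mouse chromosome 15. Their RNA was measured in adult liver with and without inactivation of hepatocyte Dio2. They were chosen by their names from a deposited table of 1525 genes that the authors had already selected as changed between the genotypes, so the group means described here are the same values that placed them in the table, and no test is made on them. The study had named all 3 as genes near a DNA site with raised methylation in the mutant liver, and no methylation value is used here. The question put to these libraries was how inactivation of Dio2 in the liver alters adult gene expression.

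The control group held 5 libraries and the Alb-D2KO group 4, all from liver of adult C57BL/6 mice. Both groups carried the Cre recombinase transgene driven by the albumin promoter, and the Alb-D2KO mice also carried the floxed Dio2 allele. The albumin promoter is active in hepatocytes, and the study describes the inactivation as specific to them. Whether the other cells of the liver keep Dio2 was not measured here. Dio2 encodes the type 2 deiodinase, which converts thyroxine into the active hormone T3. The study describes liver Dio2 as expressed only in the first days of life and silenced afterwards, so these adult libraries were taken after that period. The table does not hold Dio2, and the labels could not be checked by its level.

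SCO2 is a copper chaperone of the inner mitochondrial membrane that helps to deliver copper to cytochrome c oxidase, the last complex of the respiratory chain. TYMP, thymidine phosphorylase, splits thymidine and deoxyuridine into a base and a deoxyribose phosphate, and its loss in people disturbs the nucleotide supply of mitochondria. ODF3B is named after the outer dense fibre proteins of the sperm tail and is the least studied of the group. A gene here is said to be listed when the table holds it, and a gene outside the table has no value, whether or not it changed.

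All 3 genes lie on the minus strand of chromosome 15 in the mm10 build (GENCODE release M21, an earlier release than the M24 used for the counts), where Odf3b is transcribed first, then Tymp, then Sco2. Sco2 (ENSMUSG00000091780.3) runs from 89371637 to 89373846, Tymp (ENSMUSG00000022615.7) from 89371931 to 89377039, and Odf3b (ENSMUSG00000047394.8) from 89377449 to 89379282. Together they span 7646 bases. The end of Odf3b and the start of Tymp are separated by 409 bases, whereas the spans of Tymp and Sco2 overlap by 1916 bases.

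The bases before each start site are shown because the study placed a site of raised methylation in the neighbourhood of these promoters, not necessarily within the bases shown. They are the RefSeq sequences of build GRCm38.p6, from 250 to 31 bases upstream of the RefSeq start, 5′ to 3′, and capitals mark each CG pair, the base pair step at which DNA methylation occurs in mammals.
Odf3b promoter (chr15:89379285-89379504, minus strand): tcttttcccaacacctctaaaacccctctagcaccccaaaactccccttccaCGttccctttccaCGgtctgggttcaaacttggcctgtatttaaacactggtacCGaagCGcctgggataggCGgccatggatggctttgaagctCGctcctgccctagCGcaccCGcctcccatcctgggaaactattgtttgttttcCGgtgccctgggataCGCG
Tymp promoter (chr15:89377067-89377286, minus strand): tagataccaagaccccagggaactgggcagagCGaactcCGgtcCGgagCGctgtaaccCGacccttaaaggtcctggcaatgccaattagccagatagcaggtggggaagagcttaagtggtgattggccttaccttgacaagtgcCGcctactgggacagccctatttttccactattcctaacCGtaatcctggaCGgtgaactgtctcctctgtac
Sco2 promoter (chr15:89373922-89374141, minus strand): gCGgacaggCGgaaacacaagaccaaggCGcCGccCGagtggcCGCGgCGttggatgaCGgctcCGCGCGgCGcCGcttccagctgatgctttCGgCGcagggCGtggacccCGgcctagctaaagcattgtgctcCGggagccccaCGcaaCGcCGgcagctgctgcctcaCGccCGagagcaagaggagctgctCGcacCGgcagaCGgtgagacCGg

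In the whole RefSeq window, which runs from 250 bases before to 50 after the start, Sco2 had 31 CG pairs, Odf3b 12 and Tymp 10, beside a median of 7 over 32851 mouse promoter windows. As many CG pairs as in Sco2 were present in 10.6% of those windows, as many as in Odf3b in 39.6% and as many as in Tymp in 43.5%. The G and C content was 66.7% for Sco2, 55.7% for Odf3b and 53% for Tymp. Of the 220 bases printed for Sco2, 210 are coding sequence of Tymp, so the CG-rich start of Sco2 lies inside the body of its neighbour. The windows of Tymp and Odf3b hold no Tymp exon in the printed stretch.

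A few short motifs, chosen after these sequences had been seen, were searched on both strands, with positions counted from the RefSeq start. The GC box GGGCGG was found once in Sco2, at -220, and in 35.7% of all promoter windows. The box CCAAT was found in Tymp at -167 and -126, and in 37.4% of windows. The ETS core CCGGAA was found in Odf3b at -52, and in 14.9% of windows, and the E-box CACGTG in Sco2 at 25, downstream of the printed stretch, and in 7.15% of windows. Neither TATAAA (13.6% of windows) nor the nuclear receptor half-site AGGTCA (16.3% of windows) matched in the window of any of the 3 genes. No motif was shared by any pair of them. A match describes letters in a window and does not show that a factor binds.

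The values of the 3 genes are the authors' means per genotype, in estimated counts per library. The counter divides reads that fit several genes among them, and the means are not scaled for sequencing depth. Values of single libraries are not used here for any gene, so no SD can be given. The intervals printed with the ratios are exact (Clopper-Pearson) 95% intervals for the share of the summed count that came from Alb-D2KO, turned into a ratio of means. They cover counting error only and treat each estimated count as a read, so they leave out the spread between animals.

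All 3 genes were lower in Alb-D2KO liver, and so were 89.4% of all listed genes, so their shared direction is that of most of the table. The authors' mean for Sco2 was 598.0 estimated counts in control and 357.9 in Alb-D2KO libraries, a ratio of 0.599 (counting interval 0.562 to 0.638). For Tymp the authors' means were 1155 in control and 735 in Alb-D2KO, a ratio of 0.636 (0.608 to 0.665). For Odf3b, the least abundant of the 3, the authors' means were 134.0 and 98.0, a ratio of 0.731 (0.644 to 0.830). On the log2 scale the ratios were -0.74 for Sco2, -0.65 for Tymp and -0.45 for Odf3b. In bulk liver, fewer cells that express a gene and less of its RNA per cell cannot be told apart.

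**Figure D1:**
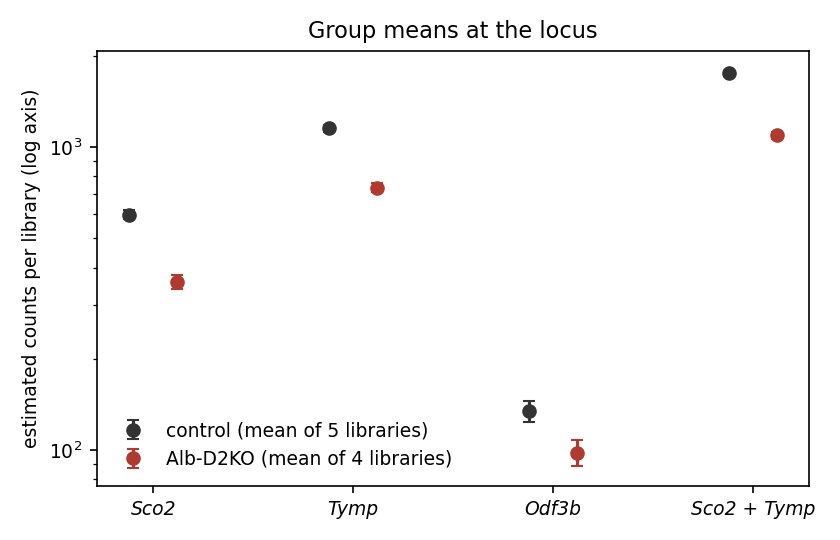
The authors' mean of each gene, and of Sco2 and Tymp summed, in estimated counts per library on a log axis, with 95% Poisson intervals that cover counting error only. The Alb-D2KO point lies below the control point in each pair, from 1155 against 735 in Tymp to 134.0 against 98.0 in Odf3b.

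A fall of at least 1.5-fold was reached by 2 of the 3 genes, Sco2 and Tymp, where 45.1% of all listed genes reached it. All 3 genes had a summed count of at least 1000, and among the 881 listed genes with such a count 181 (20.5%) were at least 1.5-fold lower. Among the 1363 listed genes with a lower mean in Alb-D2KO, 36.3% had a lower ratio than Sco2, 43.3% a lower ratio than Tymp and 69.0% a lower ratio than Odf3b. The median ratio of those genes was 0.665, between the values of Tymp and Odf3b. The ratios of 446 of the lower genes (32.7%) fell between those of Sco2 and Odf3b. Among the 794 lower genes that reach this count, a comparison added after the values were seen, 11.3% had a lower ratio than Sco2, 15.9% than Tymp and 47.5% than Odf3b, and the median ratio was 0.735. The place of Sco2 and Tymp thus depends on the genes they are set beside. It was near the middle of all lower genes and toward the low end of those with a summed count of at least 1000.

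**Figure D2:**
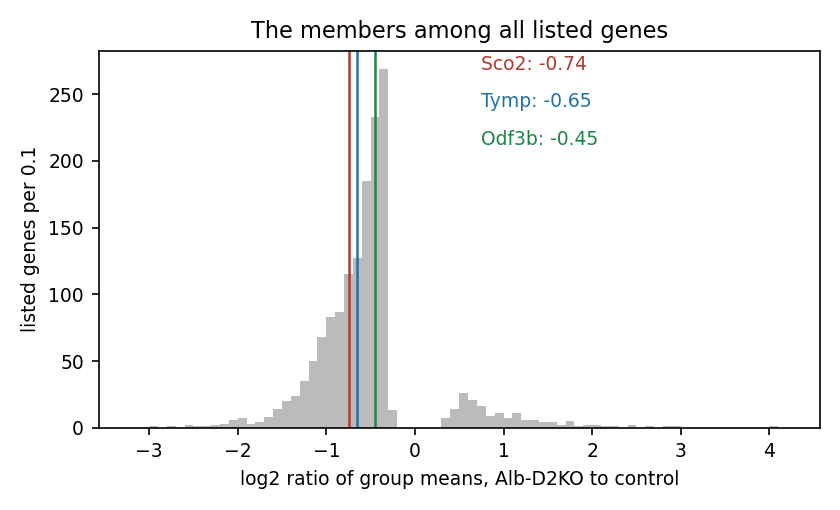
The number of listed genes in each 0.1 step of the log2 ratio of group means, Alb-D2KO to control, with a line at each of the 3 genes. The gap around 0 is the selection made by the authors, and the lines at -0.74, -0.65 and -0.45 stand within the main body of lower genes.

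The ratio of Sco2 was lower than that of Odf3b by -0.29 on the log2 scale (counting interval -0.49 to -0.09). The ratio of Tymp was lower than that of Odf3b by -0.20 (-0.39 to -0.01). Between Sco2 and Tymp the difference was -0.09 (-0.20 to 0.02), with an interval that includes 0. These differences describe the values that chose the genes and are no test, Sco2 and Tymp divide reads between them, and the spread between animals was not tested.

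Summed over the locus, the authors' means came to 1887 estimated counts in control and 1191 in Alb-D2KO, a ratio of 0.631 (0.609 to 0.653). Tymp gave 61.2% of that sum in control and 61.7% in Alb-D2KO libraries. Sco2 gave 31.7% and 30.1%, and Odf3b 7.10% and 8.23%. The make-up of the sum thus moved by under 2 percentage points for each gene, while its size fell by 36.9%.

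The split between Sco2 and Tymp needs care, because the same bases belong to both genes. They share 856 exon bases on the same strand, in 3 blocks, out of 1253 exon bases in Sco2 and 2037 in Tymp. Of the shared bases, 519 are coding in Sco2 and lie in the last, untranslated exon of Tymp, 296 are coding in Tymp and lie in the untranslated first exon of Sco2, and 0 are coding in both. That leaves 397 bases of Sco2 and 1181 bases of Tymp that are not in the other gene.

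Another gene covers most of what remains of Sco2. Ncaph2, which encodes a subunit of the condensin II complex, runs on the opposite strand from 89355719 to 89372826, and its last exon lies over 829 exon bases of Sco2, among them all 765 of its coding bases. It also lies over 535 exon bases of Tymp. With both neighbours counted on either strand, 1150 of the 1253 exon bases of Sco2 (91.8%) belong to another gene as well, and 103 do not. In Tymp the share was 42.0%, and in Odf3b it was 0%. Whether the counting used strand is not stated, and Ncaph2 is not listed, so reads of Ncaph2 and of Sco2 cannot be told apart here and their part in the Sco2 value was not tested.

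The same sharing was seen in the transcript sequences. Of all runs of 31 bases in Sco2 transcripts, 89.7% also occur in transcripts of another gene on either strand, and Ncaph2 alone holds 64.2% of them. For Tymp, 41.2% occur in another gene and 25.4% in Ncaph2, while none of the 1898 runs in Odf3b do.

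**Figure D3:**
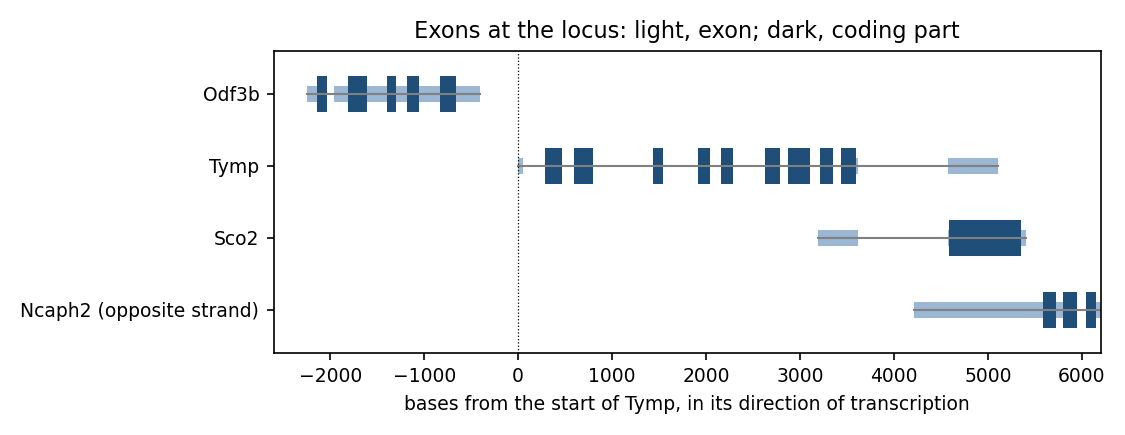
Exons (light) and coding parts (dark) of Odf3b, Tymp, Sco2 and the opposite-strand gene Ncaph2, by distance in bases from the start of Tymp. Parts of the first and last exons of Sco2 lie over exons of Tymp, and the last exon of Sco2 runs beyond the end of Tymp. The coding block of Sco2 also lies over Ncaph2, and Odf3b stands clear of the others.

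The sums show the division of reads. A group mean multiplied by its number of libraries gives 1432 estimated counts over 4 Alb-D2KO libraries and 2990 over 5 control libraries for Sco2. For Tymp the sums were 2939 and 5776. Neither gene had whole sums in both groups to within 0.01, nor had the pair added together (4370.69 in Alb-D2KO and 8765.61 in control). Odf3b had the whole sums 392 and 670, as had 871 of the 1525 listed genes (57.1%) in both groups. Whole sums are what undivided reads give, so the values of Sco2 and Tymp include divided reads and those of Odf3b show no sign of them. By the same reading, some reads of the pair were divided with genes outside it. Which genes these were was not tested.

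Because a division between overlapping genes leaves their total untouched, the sum of Sco2 and Tymp does not depend on how reads were split between this pair. It still depends on how reads were divided with genes outside the pair. Reads given to Ncaph2 are outside the sum, and reads that came from Ncaph2 may be inside it, which was not tested. The authors' means summed to 1753 in control and 1093 in Alb-D2KO, a ratio of 0.623 (0.601 to 0.646). Sco2 took 34.1% of that sum in control and 32.8% in Alb-D2KO, a split that the counter decided. The sum of the overlapping pair was lower in Alb-D2KO, as it must be when each gene of the pair is lower. Odf3b, which shares no exon base with either, was lower too, but it comes from the same selected table. Neither value is separate support for a lower level at the locus.

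Levels were compared between the genes per kilobase of exon and per 1000000 reads assigned to exons. In control liver the level was 16.9 for Tymp, 14.3 for Sco2 and 2.26 for Odf3b. In Alb-D2KO liver it was 11.6 for Tymp, 9.15 for Sco2 and 1.78 for Odf3b. The order was the same in both genotypes, with Odf3b far below the other pair. The gap between Tymp and Sco2 depends on the length used, since dividing all reads of a gene by its unshared bases alone gives 29.2 for Tymp and 173 for Sco2 in control, which puts Sco2 first. The longest Odf3b transcript is shorter than its merged exons, and by that length its control level was 3.72.

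The depth of the libraries moved in the same direction as the genes. The control libraries had 33491489 ± 3199891 assigned reads (SD, n = 5), against 31223823 ± 3447611 in Alb-D2KO (SD, n = 4), a ratio of 0.932, no more than the libraries of a group differed among themselves (exact permutation test, two-sided, p = 0.302, and 0.302 after Benjamini-Hochberg adjustment over 6 library measures). The 2 ranges overlapped, from 29692773 to 37016072 in control and from 28864613 to 36332719 in Alb-D2KO. For the median gene the estimated count was 67.4 ± 7.19 in the control libraries (SD, n = 5) against 59.97 ± 10.03 in Alb-D2KO (SD, n = 4), a ratio of 0.890 (exact permutation p = 0.175, adjusted 0.302). The smallest p that these groups allow is 0.0159.

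**Figure D4:**
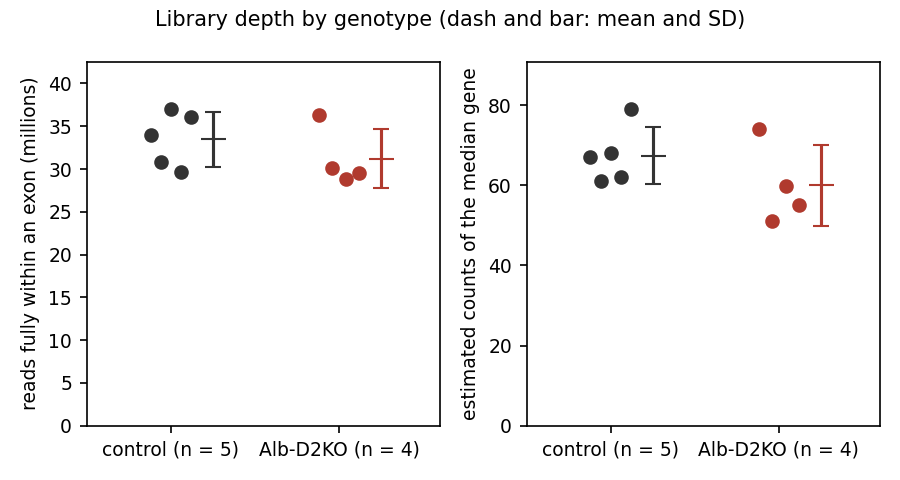
Reads fully within an exon, in units of 1000000 reads, and estimated counts of the median gene, 1 point per library, with the mean and SD beside each group. The Alb-D2KO and control points overlap in both panels, and 3 of the 4 Alb-D2KO libraries have 30173787 assigned reads or fewer against 36332719 in the deepest.

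Each ratio was therefore also divided by the depth ratio of the groups. Over assigned reads the ratio was 0.642 for Sco2 (counting interval 0.603 to 0.684), 0.682 for Tymp (0.652 to 0.713) and 0.784 for Odf3b (0.691 to 0.890). Over the median gene, the measure with the lowest depth ratio, it was 0.673 for Sco2, 0.715 for Tymp and 0.822 for Odf3b (0.724 to 0.933). All 3 genes stayed lower in Alb-D2KO under each division tried, and so did every other lower gene of the table. The share of listed genes that were lower was 89.4% before and after each division. The smallest fold difference in the table was 1.21, so the selection of the table had fixed this outcome. The number at least 1.5-fold lower went from 2 to 1 (Sco2) after division by assigned reads, total reads or the upper quartile, and to 0 after division by the median, while the share of all listed genes that far down went from 45.1% to 35.9%, 32.6%, 34.7% and 31.4%.

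**Figure D5:**
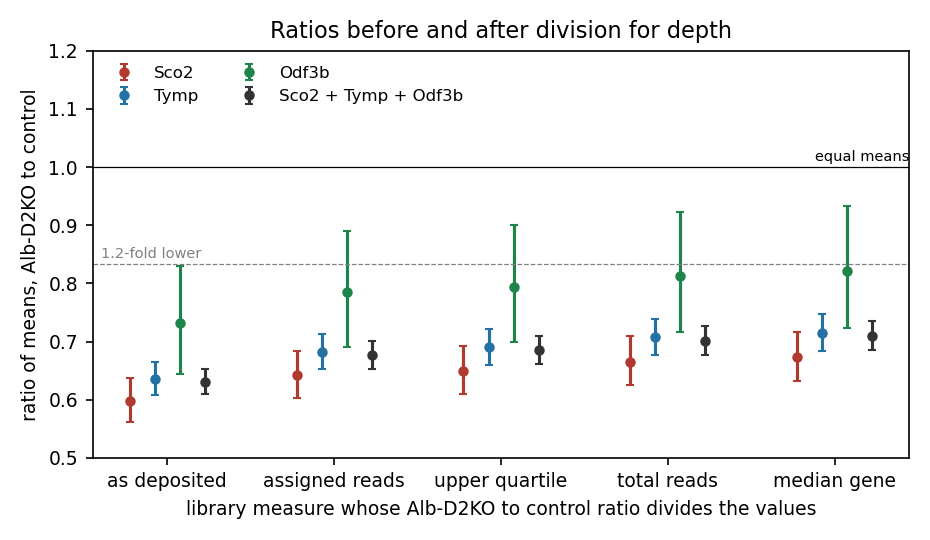
Ratio of means, Alb-D2KO to control, for each gene and their sum, as deposited and after division by the depth ratio named below each set, with 95% counting intervals. All points lie below the line of equal means, and the Odf3b interval extends above the line of a 1.2-fold fall in each of the 4 divided sets.

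Of the 10 nearest protein-coding genes on each side, which reach 230933 bases away, 3 of 20 were listed, where 4.77% of all annotated protein-coding genes were. Ncaph2, Klhdc7b and Syce3, which come next to the 3 genes, were not. The listed ones are a second group of overlapping genes that begins 37122 bases away on the Odf3b side. Chkb, a choline kinase of phospholipid synthesis, had authors' means of 695 in control and 475 in Alb-D2KO, a ratio of 0.683. Cpt1b, the muscle form of the enzyme that carries fatty acids into mitochondria, had 39.4 and 18.9, a ratio of 0.479. Gm44502, whose exons overlap those of both, had 23.1 and 36.8, a ratio of 1.59. The direction was thus opposite within that group, where reads are also divided between genes.

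Listed genes of this kind were found elsewhere too. Among protein-coding genes, 13 runs of at least 3 adjacent listed genes were counted, holding 41 of the 1048 listed protein-coding genes placed on the annotation. In 10 of the 13 runs every gene was lower, where 89.4% of all listed genes were lower. The run of Sco2, Tymp and Odf3b was the shortest, with 7646 bases, followed by Cpt1b, Gm44502 and Chkb with 13504. Several of the others are families of related genes, for which the sharing of reads was not measured here, among them Cyp4a14, Cyp4a10, Cyp4a31 and Cyp4a32, with ratios from 0.175 to 0.490, and Acot2, Acot1 and Acot4, from 0.457 to 0.549. Gstm2, Gstm1 and Gstm4 had ratios from 0.660 to 0.787, and Ces1e, Ces1f and Ces1g from 0.660 to 0.788. The acute-phase genes Saa3, Saa4, Saa1 and Saa2 were all higher, from 1.51 to 7.74. The remaining runs were Ppfia2, Acss3 and Lin7a, then Nubpl, Arhgap5 and Akap6, then Mipol1, Foxa1 and Ttc6, then Serpinb6a, Nqo2 and Ripk1, then A1cf, Asah2 and Sgms1, and last Fam13a, Tigd2 and Gprin3.

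Over the whole table, 9 pairs of listed genes shared at least 100 exon bases on the same strand, and in 7 of them both genes moved the same way. With 89.4% of all listed genes lower, most pairs of listed genes move the same way whether or not they overlap. Sco2 and Tymp are one of the 7. The pairs of Gm44502 with Cpt1b and with Chkb are the other 2.

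Genes of the pathways of the 3 genes were looked up in the table, which holds 4.77% of the 21951 annotated protein-coding genes, whether or not the liver expresses them. Of 26 genes for the assembly of cytochrome c oxidase and its copper supply, Sco2 was the only one listed, and of its 18 structural subunits 0 were. Of 35 genes of pyrimidine nucleoside and deoxynucleotide metabolism 6 were listed, with a median ratio of 0.772. Of the 6, 5 were lower, where 89.4% of all listed genes were. Besides Tymp these included Upb1, which completes the breakdown of uracil and thymine (authors' means 6215 in control and 4834 in Alb-D2KO, ratio 0.778), and Dpys, the step before it (5507 and 4216, ratio 0.766). Lower too were Tk2, the mitochondrial thymidine kinase, at 0.789 and Cda, cytidine deaminase, at 0.586. Cad, which starts pyrimidine synthesis, was higher at 1.40. Of 8 genes grouped with the outer dense fibre proteins, Odf3b was the only one listed. TYMP is also known as an interferon-responsive gene in people, and of 18 interferon-stimulated genes 0 were listed. A list with no listed member says only that its genes did not pass the selection of the table.

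The study's own list of genes with a site of raised methylation in the neighbourhood of a less accessible promoter held 12 genes. It was drawn from the genes that were lower in these samples, so that all 12 are listed and lower follows from how the list was made and is not independent evidence of direction. Their median ratio was 0.681. Sco2, Tymp and Odf3b make up 3 of these 12, and because Sco2 and Tymp share exons and reads they are not 2 separate observations. The others with the largest summed counts were Cdo1, cysteine dioxygenase, at 0.721, Mtus1 at 0.781 and the translation factor Eif5 at 0.804.

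Markers of other liver cells were examined because Tymp is also made by blood and immune cells. Of 35 markers of 7 other cell types 5 were listed, where 4.77% of all annotated protein-coding genes were listed. Of the 5, 4 were lower and 1 higher, where 89.4% of all listed genes were lower. Of 6 lymphocyte markers 2 were listed, and of 5 endothelial markers 2. The lymphocyte markers Ighm (authors' means 239 in control and 137 in Alb-D2KO, ratio 0.575) and Cd3e (17.8 and 9.25, ratio 0.520) were lower, as were the endothelial markers Stab2 (0.805) and Kdr (0.789). The cholangiocyte marker Sox9 was higher, at 1.51. No marker of Kupffer cells, stellate cells, neutrophils or red cells was listed, and of 5 hepatocyte markers Tat, tyrosine aminotransferase, was listed as higher, at 1.44. The part of these cells in the values of the 3 genes was not tested.

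The listed genes most like each gene in its pair of group means were found by distance on the log2 scale over the 2 means. For Sco2 they were Cd36, the fatty acid transporter, with authors' means of 599.8 in control and 364 in Alb-D2KO (distance 0.026), then Naaladl2 (0.0996) and Zfp704 (0.107). For Tymp they were Palmd (0.030), B430119L08Rik (0.047) and Acp1 (0.061), and for Odf3b they were Ldb2 (0.018), Fabp4 (0.019) and Gm17251 (0.037). Likeness here rests on 2 numbers a gene and describes level and ratio alone.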

How the data were processed

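RNA-seq of liver was analysed in 5 control and 4 Alb-D2KO libraries, grouped by the labelled genotype. Per the labels, bcl2fastq, STAR and Partek were used with the mm10 build, and the study's methods name GENCODE release M24 and an expectation-maximisation counter. The authors' deposited gene table gives the summed estimated count and the mean estimated count per genotype. It holds genes that passed an unadjusted p-value and a 1.2-fold difference, so the genes outside it have no value here. Its columns of p-value, false discovery rate, ratio and fold change, and the enrichment tables, are the authors' own comparisons and were not used. The deposited library summaries give the read count of each library, the percent of its reads in each position class around exons, and the mean, median and upper quartile of estimated counts over genes. There were 7 columns of per-sample values not used.

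Assigned reads were total reads times the percent of reads fully within an exon. Ratios were computed from the group means, with Clopper-Pearson 95% intervals. No gene was tested. Library measures were compared by exact two-sided permutation tests in SciPy 1.17.1 under Python 3.11.15. Each title carries its own number, and the study describes the controls as littermates that express Cre. The p-values set each difference between the groups against those over all 126 splits of these libraries, and so rest on the spread between libraries. The ratio and interval computations were tested on simulated data.

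Overlaps and neighbours came from GENCODE release M21, on which 1496 of 1525 symbols were placed, and promoters from RefSeq, on which all 3 genes matched. The 3 genes and all gene lists were chosen with earlier results of these data known. Genes named besides the 3 are the listed ones among the 10 nearest on each side and in other runs of 3 or more, the listed members of each gene list (all if 5 or fewer, otherwise those with the largest summed count), and the 3 nearest in group means. Tk2, Cda and Cad were named outside this rule, after their values were seen, to account for each listed gene of their list. Alternatives were other divisions for depth, a pseudocount of 1, count minimums of 100 and 1000, other gene lengths and genes of any biotype. Each library was also left out of the depth values, but not of the gene means, which cannot be given without it.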

Additional observations from a re-analysis of the deposited data

Results flagged for a closer look

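Alb-D2KO replicate 1 had 50322325 total reads, and the next deepest Alb-D2KO library had 41723927. Its gap to the nearest library was 0.852 of the range of the group, which is more than is usual for 4 samples. It was the only one in 12 group and measure combinations, of which chance gives about 0.6. The means of Sco2, Tymp and Odf3b include this library and cannot be given without it. When it was left out of the total-read ratio alone, a choice made after seeing the data, the divided ratios were 0.704 for Sco2, 0.749 for Tymp, 0.861 for Odf3b and 0.743 for their sum.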

How the results depend on the processing

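Every alternative kept the 3 genes and their sum lower in Alb-D2KO, an outcome that the selection of the table had fixed for the divisions by depth. A pseudocount of 1, the sum of Sco2 and Tymp alone and the geometric mean of the 3 ratios stayed within the counting interval of the reported value. Division for depth moved the ratio of Sco2 to 0.642 over assigned reads, 0.649 over the upper quartile, 0.665 over total reads and 0.673 over the median, that of Tymp to 0.682, 0.690, 0.707 and 0.715, and that of the sum to 0.677, 0.685, 0.701 and 0.709, in that order. With 1 library at a time left out of the assigned-read ratio, the divided ratios ran from 0.625 to 0.679 for Sco2, 0.664 to 0.722 for Tymp, 0.764 to 0.830 for Odf3b and 0.659 to 0.716 for the sum; the gene means themselves still hold all libraries. Without Alb-D2KO replicate 1 in the total-read ratio, chosen after seeing the data, they were 0.704, 0.749, 0.861 and 0.743. The control level per kilobase moved to 173 for Sco2 and 29.2 for Tymp with the unshared length, which by construction gives all reads to those bases, and to 3.72 for Odf3b with the longest transcript. The share of listed genes at least 1.5-fold lower moved to 35.9% over assigned reads, 31.4% over the median and 20.5% with a summed count of at least 1000. The log2 difference in assigned reads ran from -0.18 to -0.06 with each library left out (exact permutation p from 0.0714 to 0.543), the lower end without Alb-D2KO replicate 1. No paired analysis was possible because the labels number no replicates and gene values were held as group means. Depth limits Odf3b most, with a summed count of 1062 over 9 libraries.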
